A study of Mus musculus with 12 samples.

Results

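The 10 genes described here encode subunits of the NMDA and AMPA receptors, the glutamate-gated channels of excitatory synapses. They were taken by symbol from the 46603 genes counted in the series, and comprise 6 NMDA receptor subunit genes (Grin1, Grin2a, Grin2b, Grin2c, Grin2d and Grin3a) and 4 AMPA receptor subunit genes (Gria1, Gria2, Gria3 and Gria4). All 10 were present in both count tables. Neocortical RNA was sequenced from wild-type (Chd8+/+) and heterozygous (Chd8+/-) mice. The heterozygotes carry 1 null allele of the chromatin remodeler Chd8 made by germline deletion of exon 3, on a C57Bl/6J background. Embryos at E12.5 gave tissue from both hemispheres and pups at P5 from a single hemisphere, with n = 3 libraries per genotype and stage and 12 libraries in all. The Cre transgene used to make the null allele had been bred out, and the deletion is carried by all cells of the animal, not by neurons alone. Each stage was counted in a table of its own, from runs of its own by the column labels, and differed in the hemispheres taken. These differences and stage cannot be told apart.

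NMDA receptors assemble from the obligatory subunit GRIN1 with GRIN2 or GRIN3 subunits. Those of GRIN1 and GRIN2 pass current mainly when glutamate is bound while the membrane is depolarized. The GRIN2 subunit sets the kinetics of the channel, and in forebrain the immature, slowly decaying GRIN2B-containing receptors are joined after birth by faster GRIN2A-containing ones. AMPA receptors carry most fast excitatory transmission, and the subunit GRIA2, whose transcript is edited at the site lining the pore, makes them impermeable to calcium.

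The libraries held between 38774591 and 54695236 counts. Chd8, the deleted gene, was lower in every Chd8+/- library than in any Chd8+/+ library, with normalised counts (CPM) of 164 ± 3.31 against 233 ± 3.55 at E12.5 and 96.5 ± 1.93 against 149 ± 3.11 at P5 (mean ± SD, n = 3). These counts include reads outside the deleted exon. Markers of cortical excitatory neurons were present at both stages, with none of the 11 at 0 in any library. Each group held 1 library with high Xist counts, which mark 2 X chromosomes, and 2 with Y-linked counts, so the genotypes had the same mixture of sexes. The library Chd8+/- replicate 3 at P5 stood apart from its group, with a chi-squared per degree of freedom of at least 43.7 against the others, whereas every other library of the series had a group mate within 15.4. In bulk tissue, fewer cells of a type and less RNA per cell cannot be told apart.

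The promoters of 2 subunit genes are shown because these genes had the largest and the smallest rise between the stages described below. RefSeq sequences of GRCm38.p6 were at hand for 5 of the 10 members, each from 250 bases before to 50 bases after the transcription start. Grin1 lies on the minus strand of chromosome 2, with its promoter at chr2:25319138-25319437, and Gria2 on the minus strand of chromosome 3, with its promoter at chr3:80802786-80803085. Both are printed 5′ to 3′ in the direction of transcription, with matches to the GC box GGGCGG, the core motif of Sp factors, and to TGCGCA, the core of the NRF1 motif, in capitals.
Grin1: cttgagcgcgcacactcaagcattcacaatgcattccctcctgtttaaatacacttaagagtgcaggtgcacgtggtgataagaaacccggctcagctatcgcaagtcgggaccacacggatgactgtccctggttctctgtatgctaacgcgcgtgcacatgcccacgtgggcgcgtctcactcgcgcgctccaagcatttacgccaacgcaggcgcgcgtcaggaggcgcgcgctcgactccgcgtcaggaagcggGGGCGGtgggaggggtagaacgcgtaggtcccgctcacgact
Gria2: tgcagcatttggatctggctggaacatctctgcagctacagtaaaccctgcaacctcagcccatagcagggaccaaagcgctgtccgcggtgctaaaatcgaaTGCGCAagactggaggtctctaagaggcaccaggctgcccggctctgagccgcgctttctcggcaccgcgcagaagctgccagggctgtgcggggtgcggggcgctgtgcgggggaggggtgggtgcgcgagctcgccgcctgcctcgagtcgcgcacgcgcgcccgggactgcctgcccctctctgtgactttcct
On both strands, Grin1 had 1 GC box and no NRF1 core, and Gria2 had 1 NRF1 core and no GC box, with no overlap of the motifs. Among 27025 promoters of the same length, 35.9% held the GC box and 8.06% the NRF1 core. Both promoters were rich in CpG, with 33 CpG in Grin1 and 26 in Gria2 against a median of 7 over all promoters. Their GC content was 60.7% and 65.7% against a median of 52.7%. These matches describe the letters in the window and say nothing of binding.

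To compare the subunits with each other, levels were expressed per kb of merged exons, since the genes differ in length from 5037 exonic bases (Grin2c) to 24842 (Grin2b). At E12.5 the AMPA receptor subunits led the order in Chd8+/+ neocortex. Gria2 (chr3:80681450-80802835), which makes the channel impermeable to calcium, stood first with 12.2, 12.8 and 10.7 CPM per kb in the 3 libraries. In Chd8+/- it had 12.4, 9.17 and 12.2 CPM per kb, and replicate 2 was the lowest of the 6. Gria4 and Gria1 followed at 4.05 ± 0.318 and 3.76 ± 0.658 CPM per kb (mean ± SD, n = 3), and their ranges overlapped. Gria3 had 1.24 ± 0.0693, Grin2b 0.966 ± 0.139 and Grin3a 0.569 ± 0.0293 CPM per kb, each above the next in all 3 libraries. Grin2d at 0.455 ± 0.0511 and Grin1 at 0.338 ± 0.102 CPM per kb overlapped. The level of Grin1 (chr2:25291181-25319187), although its product is part of every NMDA receptor, was thus below those of Grin2b and Grin3a at this stage. Grin2a had 0.123, 0.127 and 0.0968 CPM per kb in Chd8+/+ libraries, from 83 to 114 counts each. Grin2c, best known from the cerebellum, was close to the limit of detection with 5 to 6 counts per Chd8+/+ library and 2 to 8 per Chd8+/- library. In Chd8+/- the order was the same, but Gria3 overlapped Grin2b and Grin3a overlapped Grin2d.

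At P5 the order had changed. Gria1 (chr11:57011387-57330244) was now first, with 55.3, 55.6 and 58.1 CPM per kb in Chd8+/+ libraries and 49.4, 54.2 and 51.0 in Chd8+/- libraries. Gria2 was second, with 33.8, 34.2 and 34.2 CPM per kb in Chd8+/+ and 26.3, 30.1 and 29.8 in Chd8+/-. Each Chd8+/- library was below each Chd8+/+ library for both genes. Grin2b (chr6:135713233-136173511) had 22.0, 21.8 and 22.1 CPM per kb in Chd8+/+ and 19.1, 21.0 and 20.6 in Chd8+/-, again without overlap. Grin1 reached 21.0, 21.3 and 20.8 CPM per kb in Chd8+/+ and 20.7, 21.2 and 20.6 in Chd8+/-, with overlapping genotypes. In Chd8+/+ Grin2b was above Grin1 in all 3 libraries, whereas in Chd8+/- the pair overlapped. Gria4, Grin3a, Grin2d and Gria3 lay between 15.3 ± 0.333 and 9.92 ± 0.204 CPM per kb (mean ± SD, n = 3) in Chd8+/+, in that order and without overlap. In Chd8+/- the levels of Gria4, Grin3a and Grin2d overlapped. Grin2a (chr16:9567898-9995560) was low, with 2.12, 2.03 and 2.24 CPM per kb in Chd8+/+ and 2.09, 2.27 and 2.35 in Chd8+/-, and Grin2c was last at 0.730 ± 0.0750 in Chd8+/+ and 0.830 ± 0.185 in Chd8+/-. The plot of levels by library shows all values.

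**Figure D1:**
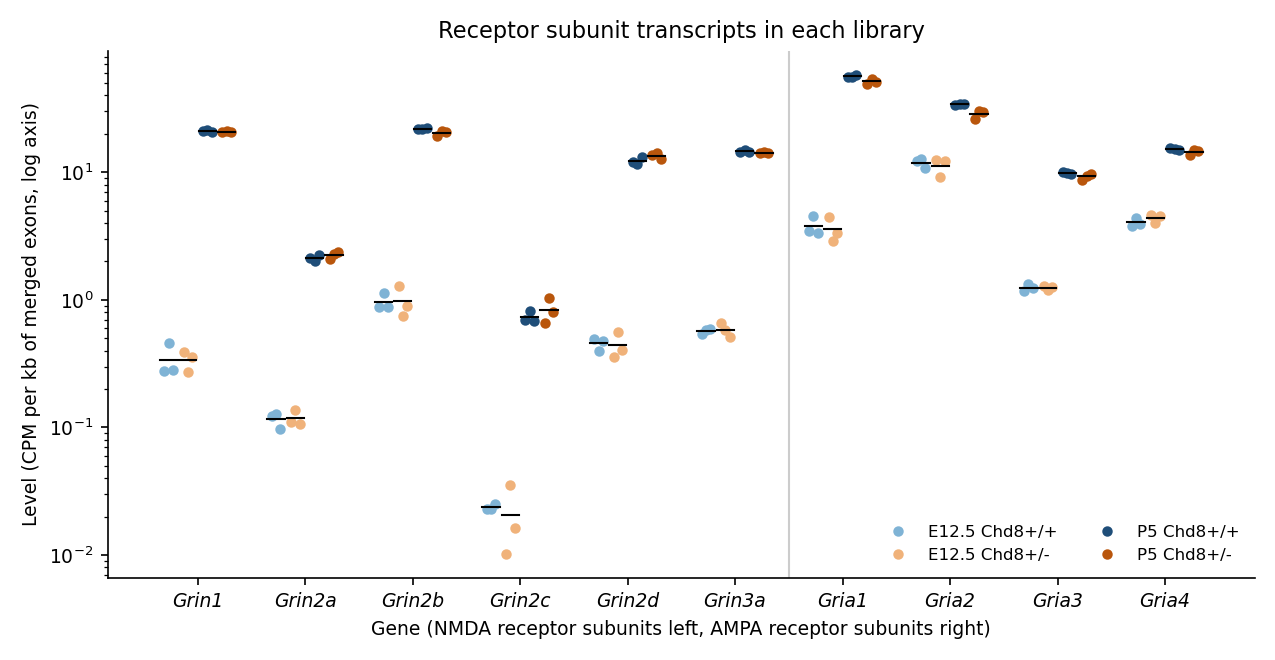
Level of each of the 10 subunit genes in each of the 12 libraries, in CPM per kb of merged exons on a log axis, with a horizontal line at the mean of each group of 3 libraries. All 6 P5 libraries lie above all 6 E12.5 libraries for every gene, and Gria2 is first at E12.5 while Gria1 is first at P5.

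The stages were then compared within each genotype in a model of all 4 groups. All 10 members were higher at P5 in Chd8+/+ and passed an adjusted p of 0.05 in edgeR, where 41.4% of the 19676 genes tested did so in this direction. At least an 8-fold rise was found in 7 of the 10, against 8.66% of all genes. In Chd8+/- all 10 rose again, where 41.3% of genes did, and 7 rose by at least 8-fold, against 8.29%. The groups did not overlap for any member in either genotype. The log2 fold changes had a median of 4.36 in Chd8+/+ and 4.31 in Chd8+/-, against −0.018 and −0.0046 over all genes tested.

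NMDA receptor subunits rose more than AMPA receptor subunits, with medians of 4.72 (6 genes) and 2.46 (4 genes) in Chd8+/+ that describe the lists and were not tested against each other. Grin1, the obligatory subunit, had the largest log2 fold change of the 10, 5.98 ± 0.124 (SE), which is 62.9-fold (edgeR adjusted p = 5.31e-15). Of its exonic bases, 13.47% are shared with the antisense gene Grin1os, and since no strand was set in the counting command recorded at P5, reads there cannot be told apart. Grin2b rose 22.7-fold (log2 4.51 ± 0.160) and Grin2a 18.5-fold (log2 4.21 ± 0.102). Grin2d, an embryonic and interneuron subunit, rose 27-fold (log2 4.76 ± 0.121), and Grin3a, a subunit that lowers calcium permeability, 25.7-fold (log2 4.68 ± 0.0681). For Grin2c the fitted value of 4.92 ± 0.277 rests on 17 counts over the 3 E12.5 libraries against 522 at P5.

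Among the AMPA receptor subunits, Gria1, associated with activity-dependent receptor insertion, rose 15-fold (log2 3.91 ± 0.139). Gria3, the X-linked member (chrX:41400854-41678601), rose 7.99-fold (log2 3.00 ± 0.0590). Gria4 (chr9:4417899-4796234), prominent in early circuits and interneurons, rose 3.77-fold (log2 1.92 ± 0.0655). Gria2 had the smallest rise of the 10, at 2.86-fold (log2 1.52 ± 0.102, edgeR adjusted p = 2.69e-09). In Chd8+/- the values were between 1.35 ± 0.102 for Gria2 and 5.94 ± 0.124 for Grin1 on the log2 scale, in the same order of genes. Those of the others were 5.27 for Grin2c, 4.93 for Grin2d, 4.62 for Grin3a, 4.38 for Grin2b, 4.25 for Grin2a, 3.86 for Gria1, 2.90 for Gria3 and 1.72 for Gria4. With an offset for genomic span all 10 were still called in Chd8+/+, but the long genes had smaller values, with Grin2b at 3.27, Grin2a at 3.02, Gria1 at 2.93 (below 8-fold), Gria3 at 2.11 and Gria4 at 0.82 on the log2 scale. Gria2 was at 1.15, so that with this offset Gria4 and not Gria2 had the smallest rise. Grin1, which spans 28.0 kb, was at 6.01.

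**Figure D2:**
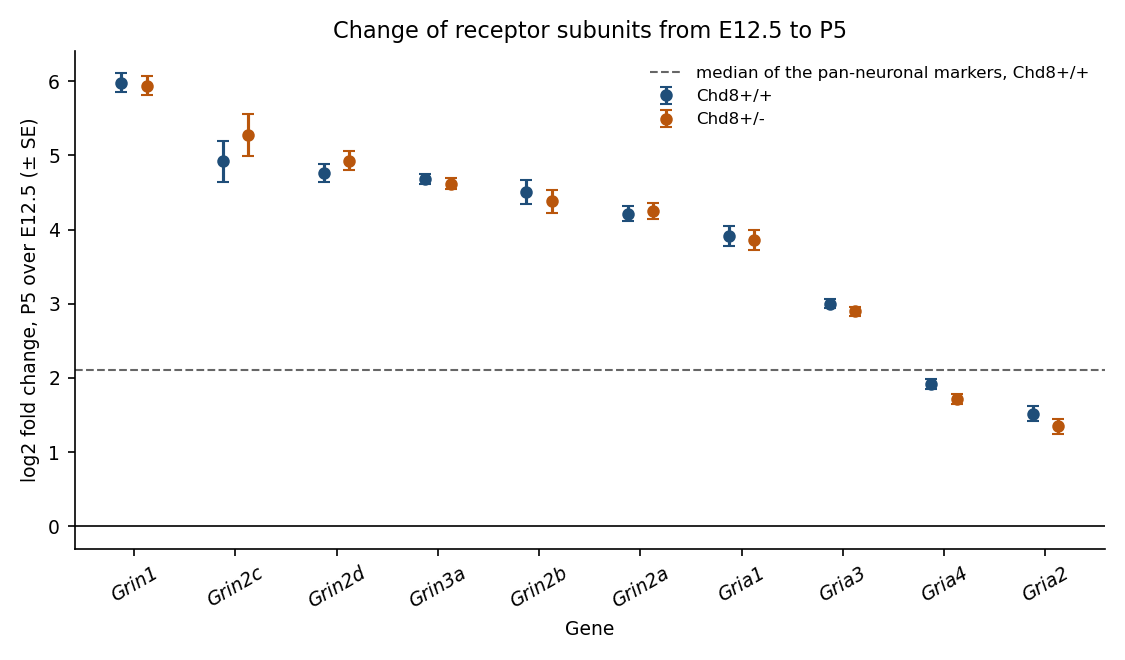
Log2 fold change of each member from E12.5 to P5 with its standard error, in Chd8+/+ (blue) and Chd8+/- (orange), from the model of 12 libraries. Grin1 is highest at 5.98 in Chd8+/+, and only Gria4 and Gria2 lie below the dashed line, the median of 2.1 of 14 pan-neuronal markers in Chd8+/+.

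Cell type markers moved with stage as well, where 41.4% of all genes were called higher at P5 in Chd8+/+. Of the 14 pan-neuronal markers 12 rose and 2 fell, a median of 2.1 on the log2 scale and a summed level of 4170 to 4870 CPM in E12.5 and 10900 to 11100 CPM in P5 Chd8+/+ libraries. Of the 12 progenitor markers 10 fell, with a summed level of 4660 to 5000 CPM at E12.5 and 1160 to 1340 CPM at P5. Markers of other cell types rose too in Chd8+/+, with 6 of 7 astrocyte markers (median log2 6.19), 9 of 10 of striatal medium spiny neurons (3.21), 6 of 7 of oligodendrocyte precursors (2.20) and 7 of 8 of microglia (1.81). Of 11 cortical excitatory markers 6 rose and 3 fell (median 1.16), and of 10 GABAergic interneuron markers 5 rose and 3 fell (0.69). Choroid plexus markers had a median of 1.58 (5 of 7 rose), and endothelial, meningeal and erythrocyte markers medians of −0.58, −0.79 and −2.82. The part of these cell types in the rise of the members was not tested. No pan-neuronal or progenitor marker was at 0 in any library. When libraries were instead scaled to the geometric mean of the pan-neuronal markers, which shifted the median of all genes to −1.87, 8 of the 10 members remained higher at P5 in Chd8+/+. Grin1 was then 17.4-fold higher and Gria3 2.21-fold higher, the largest and the smallest of these. Relative to the neuronal markers Gria2 was 0.792-fold (log2 −0.34 ± 0.0999, edgeR adjusted p = 0.00436), a fall, and Gria4 1.04-fold (log2 0.063 ± 0.0758, adjusted p = 0.431). In Chd8+/- Gria2 was 0.740-fold (adjusted p = 0.000557) and Gria4 0.958-fold (adjusted p = 0.439) by the same scaling.

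Composition of the receptor transcripts, as the share of each subunit in the per-kb sum of its family, differed between the stages. In Chd8+/+, Grin1 made up 13.5% ± 2.82 of the NMDA receptor transcripts at E12.5 and 28.9% ± 0.587 at P5 (SD, n = 3). Grin2b went from 39.1% ± 2.20 to 30.2% ± 0.224 and Grin2a from 4.68% ± 0.569 to 2.93% ± 0.120, all without overlap of the libraries. Grin3a went from 23.1% ± 1.78 to 20.1% ± 0.367, without overlap. Grin2d held 18.6% ± 3.49 and 17% ± 0.950, which overlapped, and Grin2c 0.961% ± 0.109 and 1.0% ± 0.109. Among the AMPA receptor transcripts, Gria2 went from 56.8% ± 2.15 to 29.5% ± 0.270 and Gria1 from 17.9% ± 1.56 to 48.7% ± 0.808, so that Gria1 led at P5 on this scale. The change of order depends on the division by exon length (15548 bases for Gria2, 6043 for Gria1). By CPM alone Gria2 led at both stages, with 530 against 340 CPM at P5 in Chd8+/+, and held 75.5% of the AMPA receptor counts at E12.5 and 49.9% at P5. Gria3 increased its share from 5.95% ± 0.413 to 8.58% ± 0.251 and Gria4 decreased from 19.4% ± 1.15 to 13.2% ± 0.402. The summed AMPA to summed NMDA level per kb was 8.5 ± 0.336 at E12.5 and 1.59 ± 0.00315 at P5. By CPM, with no division by length, this ratio was 6.28 ± 0.40 and 1.02 ± 0.00370. The plot of shares shows each library.

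**Figure D3:**
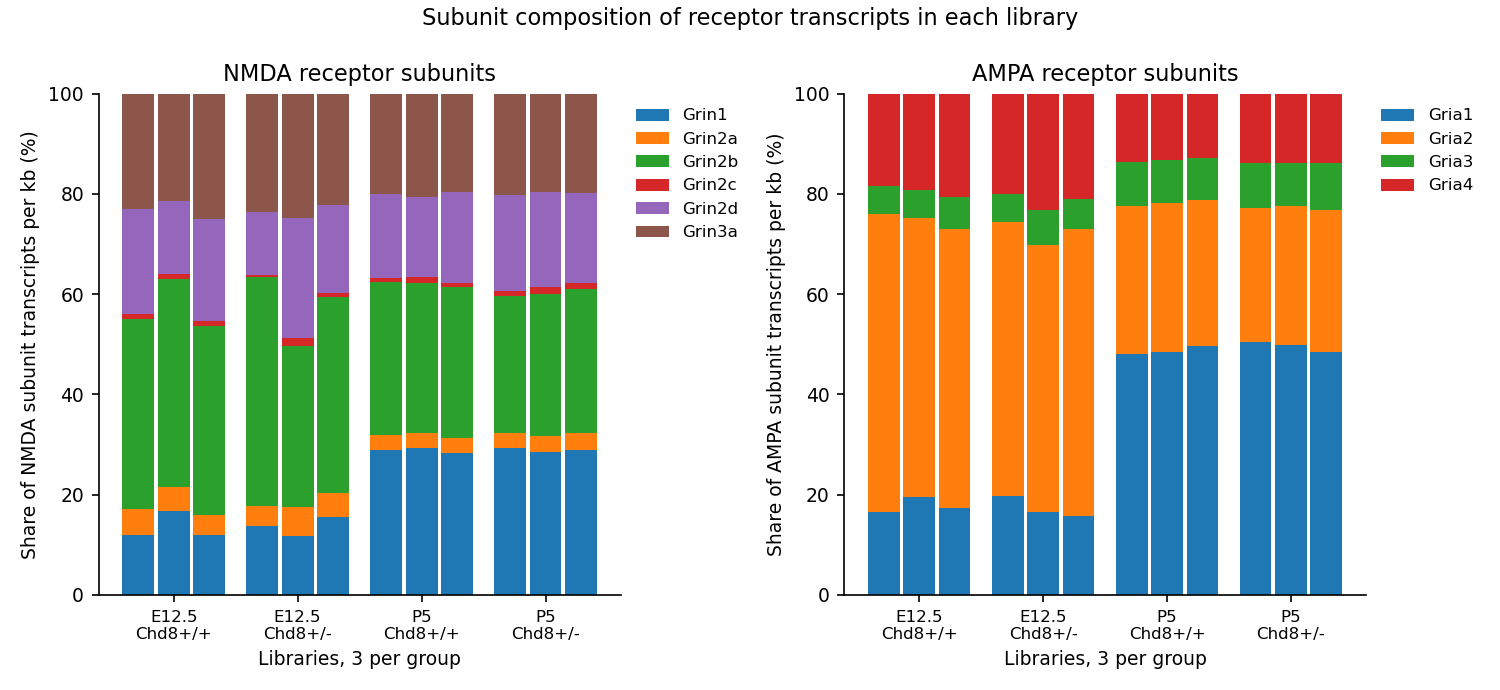
Share of each subunit in the per-kb sum of the NMDA (left) and AMPA (right) receptor transcripts, in percent, with 1 stacked bar per library and 3 libraries per group. Gria2 holds 55.5% to 59.3% of the AMPA receptor transcripts in E12.5 Chd8+/+ libraries and 29.2% to 29.8% at P5, where Gria1 holds 48.1% to 49.6%.

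The balance of Grin2b to Grin2a, which marks the maturation of NMDA receptors later in postnatal life, was examined as the log2 ratio of their levels per kb in each library. At E12.5 Grin2b exceeded Grin2a 7.23-, 8.88- and 9.16-fold in Chd8+/+ and 11.7-, 5.47- and 8.41-fold in Chd8+/- libraries. At P5 the excess was 10.4-, 10.7- and 9.86-fold in Chd8+/+ and 9.13-, 9.24- and 8.74-fold in Chd8+/-. In Chd8+/+ every P5 library was above every E12.5 library (difference 0.30 on the log2 scale), whereas in Chd8+/- the stages overlapped (0.15). Over both genotypes the mean difference of 0.23 was not significant (two-sided exact permutation of stage within genotype, p = 0.22, adjusted over 12 tests 0.33, smallest possible p 0.005). Without E12.5 Chd8+/- replicate 1, the library with the highest embryonic ratio, the difference was 0.36 (exact p = 0.005, the smallest possible), and without Chd8+/- replicate 2, the lowest, it was 0.084 (exact p = 0.51). With 10 counts added to each gene it was 0.35 (exact p = 0.03). By its construction this addition lowers the ratio mainly at E12.5, where Grin2a had few counts, so this p adds no independent evidence of a rise. Grin2a had 77 to 114 counts per library at E12.5, which limits the precision of the embryonic ratio.

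Between genotypes, the mean Grin2b to Grin2a ratio at E12.5 was 8.38 in Chd8+/+ and 8.12 in Chd8+/- (geometric means, difference −0.045 on the log2 scale, exact permutation p = 0.8). This difference was 0.24 without Chd8+/- replicate 2 and 0.019 without Chd8+/+ replicate 3. At P5 the ratio was 10.3 in Chd8+/+ and 9.03 in Chd8+/-, and all 3 Chd8+/- libraries lay below all 3 Chd8+/+ libraries (difference −0.19). The exact two-sided permutation test gave p = 0.10 there, adjusted 0.20 over the 12 tests, which is the smallest p that 3 libraries against 3 allow.

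Other balances moved with stage beyond the spread of the libraries. Gria2 to Gria1 fell from 3.19 to 0.605 in Chd8+/+ and from 3.19 to 0.556 in Chd8+/- (mean log2 difference −2.46, exact stratified permutation p = 0.005, adjusted 0.03). Grin3a to Grin1 fell from 1.73 to 0.694 in Chd8+/+ and from 1.73 to 0.686 in Chd8+/- (difference −1.33, exact p = 0.005, adjusted 0.03). For Grin2d to Grin2b the difference of 0.40 did not pass (exact p = 0.155, adjusted 0.266). At P5 the genotypes did not overlap in Gria2 to Gria1 (difference −0.12), in Grin3a to Grin1 (−0.018) or in Grin2d to Grin2b (0.25), each at the smallest possible exact p of 0.10, adjusted 0.20. At E12.5 none of these 3 differed beyond the spread, with exact p of 1.0 in each.

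**Figure D4:**
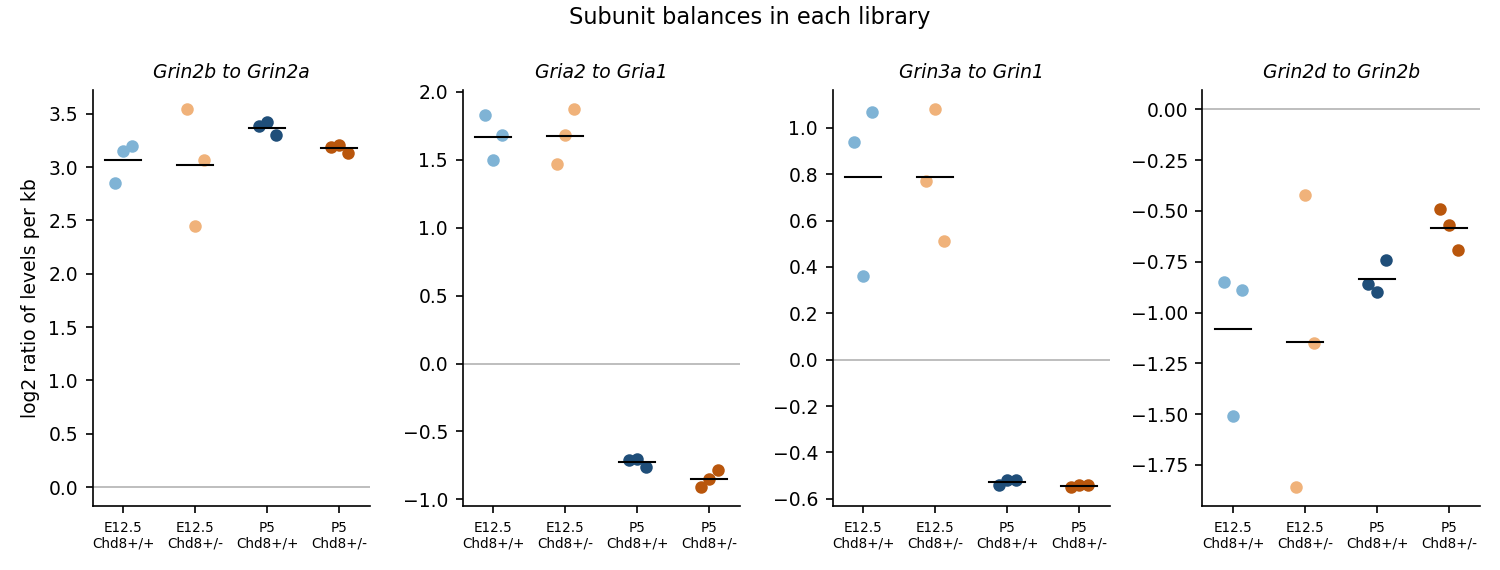
Log2 ratio of the levels per kb for 4 pairs of subunits in each library, with a line at each group mean (n = 3), each panel on its own vertical scale. The Grin2b to Grin2a ratio spreads from 2.45 to 3.54 among Chd8+/- libraries at E12.5 and lies between 3.13 and 3.42 at P5, while Gria2 to Gria1 changes sign between the stages on this scale, though by CPM Gria2 exceeds Gria1 at both.

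Genotypes were compared within each stage, as the study did with DESeq2, to ask whether loss of 1 Chd8 allele alters these transcripts. The main test here was edgeR, with DESeq2 as an alternative. At E12.5 none of the 9 members tested was called by edgeR, where 0.00553% of 18081 genes were called, namely Chd8 alone. None had an unadjusted p under 0.05 (5.15% of all genes), none was called by DESeq2 or limma-voom, and none had genotypes without overlap (11.4% of all genes). Log2 fold changes ran from −0.078 for Gria1 and Gria2 to 0.11 for Gria4, with Grin2d at −0.051, Grin2a at 0.030 and Grin3a at 0.031. Intervals at 95% were wide for the NMDA receptor subunits, from −0.49 to 0.50 for Grin1 and from −0.39 to 0.41 for Grin2b, so that differences within these intervals could not be told from the spread between libraries. They were narrowest for Gria3, from −0.17 to 0.17. Grin2c did not pass the filter on low counts.

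At P5 none of the 10 members was called by edgeR either, where 0.00536% of 18666 genes were, again Chd8 alone. An unadjusted p under 0.05 was found for 4 members, 3 of them lower in Chd8+/-, against 17.8% of all genes. The genotypes did not overlap for 5 members, Grin2b and all 4 AMPA receptor subunits, each lower in Chd8+/-, against 23.4% of all genes in either direction. By DESeq2, with 5.22% of its 12467 filtered genes called, Gria2 was the only member called.

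Gria2 had the largest difference relative to its error. It was at 526, 532 and 532 CPM in Chd8+/+ and at 409, 467 and 463 CPM in Chd8+/- libraries, with replicate 1 the lowest. The log2 fold change was −0.23 ± 0.0494 (SE), or 0.852-fold, with a 95% interval of −0.34 to −0.12 (edgeR unadjusted p = 0.000772, adjusted p = 0.10). DESeq2 gave −0.23 ± 0.0486 with an adjusted p of 0.000659, and limma-voom an adjusted p of 0.0896. Over single libraries left out, the value stayed between −0.27 and −0.17 and the edgeR adjusted p between 0.0429, without Chd8+/- replicate 2, and 0.39, without Chd8+/+ replicate 1. Without Chd8+/- replicate 2, edgeR called 1.72% of 19044 genes, 327 in place of 1. Without Chd8+/- replicate 3, the library that stood apart, it was −0.25 (adjusted p = 0.192).

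The other AMPA receptor subunits differed by less between genotypes and were not called by edgeR. Gria1 had 334, 336 and 351 CPM in Chd8+/+ and 299, 327 and 308 CPM in Chd8+/- (log2 −0.11 ± 0.0429, edgeR unadjusted p = 0.0249, adjusted 0.218). Gria3 had 100, 97.5 and 96.0 against 85.9, 92.4 and 95.9 CPM (log2 −0.082 ± 0.0416, adjusted p = 0.331), and Gria4 96.1, 93.5 and 92.0 against 83.5, 91.9 and 89.7 CPM (log2 −0.071 ± 0.0394, adjusted p = 0.375). For Gria3 and Gria4 the genotypes were separated by less than 1 CPM. The 4 AMPA members had a median of −0.10 and 4 of 4 were negative, although Gria4 was at 0.020 with an offset for genomic span. Over all genes the median was 0.0017 and 9254 of 18666 were negative. Gria2 lay in a bin of genomic span, described below, where 67.0% of genes were lower in Chd8+/-. The other AMPA members lay in the longest bin, where 72.8% were. At P5 the AMPA to NMDA ratio of summed levels per kb was 1.40 to 1.48 in Chd8+/- and 1.59 in each Chd8+/+ library. By CPM it was 0.905 to 0.952 against 1.01 to 1.02.

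NMDA receptor subunits did not move together. Grin2b had 548, 540 and 548 CPM in Chd8+/+ and 475, 521 and 511 CPM in Chd8+/- (log2 −0.10 ± 0.0406, 95% interval −0.19 to −0.013, edgeR unadjusted p = 0.0283, adjusted 0.228). Grin2d was at 71.0, 68.5 and 77.5 CPM in Chd8+/+ and at 79.6, 82.5 and 74.7 CPM in Chd8+/-, with overlap (log2 0.14 ± 0.0530, unadjusted p = 0.0231, adjusted 0.212). Grin2a at 38.1, 36.5 and 40.2 against 37.5, 40.7 and 42.2 CPM had a log2 fold change of 0.087 with an interval of −0.038 to 0.21. For Grin1 the interval was −0.076 to 0.076 around a value of 6.8e-05, and for Grin3a −0.095 to 0.059 around −0.018. Grin2c had 0.20 with an interval of −0.14 to 0.55. The median of the 6 was 0.044. Single libraries moved several of these values with no change of call. Without Chd8+/- replicate 1, Grin2b was at −0.065, Gria3 at −0.040 and Gria4 at −0.033. Grin2c was at 0.026 without Chd8+/- replicate 2 and at 0.34 without replicate 1, and Grin2a at 0.054 without Chd8+/+ replicate 2. As shares of the NMDA receptor transcripts, Grin2b was 30.2% in Chd8+/+ and 28.1% in Chd8+/- and Gria2 was 29.5% and 27.6% of the AMPA receptor transcripts, both without overlap. The share of Gria4 was higher, 13.2% in Chd8+/+ and 13.8% in Chd8+/- of the AMPA receptor transcripts, also without overlap. The shares of Grin2b, Gria2 and Gria4 each had an exact permutation p of 0.10, the smallest possible, adjusted 0.50 over 20 tests. Those of Gria1 (48.7% and 49.6%) and Gria3 (8.58% and 8.92%) were also higher in Chd8+/-, with overlap. Shares of a family have a fixed sum, so a lower share of Gria2 raises the rest together by construction. The level of Gria4 itself was lower in Chd8+/- (log2 −0.071).

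**Figure D5:**
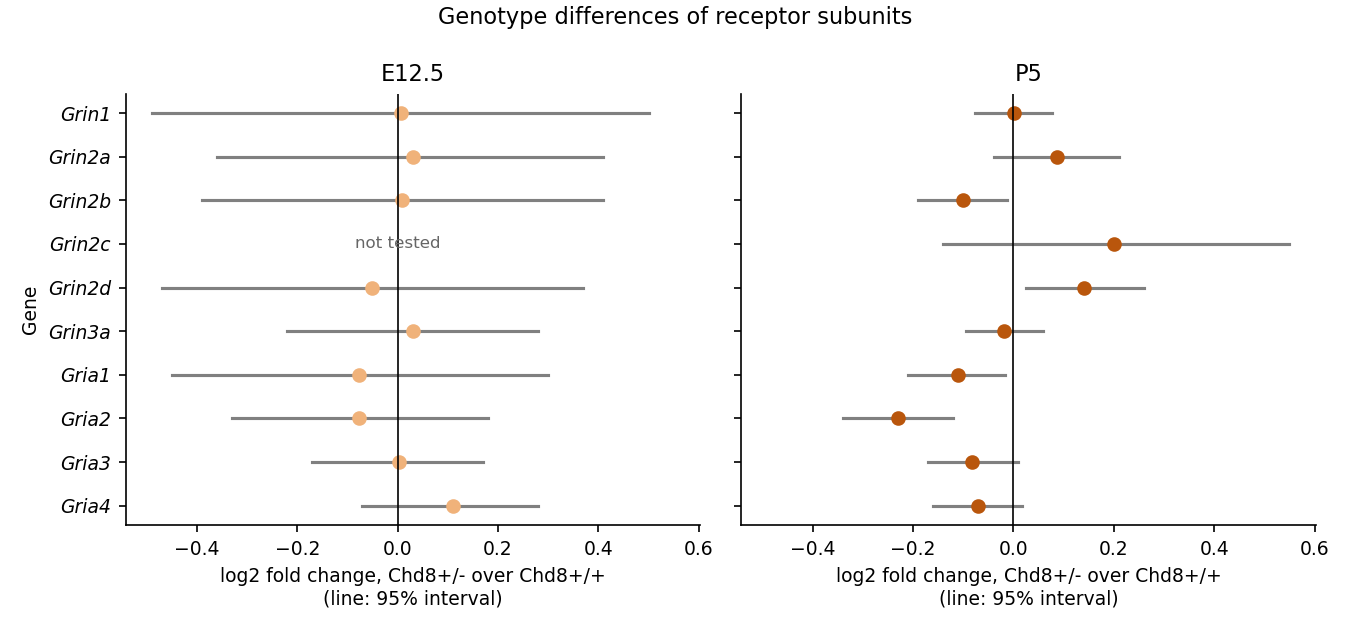
Log2 fold change of Chd8+/- over Chd8+/+ for each member at E12.5 (left) and P5 (right), from edgeR, with its 95% interval. At P5 the interval of Gria2 runs from −0.34 to −0.12, those of Grin2b and Gria1 also lie below 0, and that of Grin2d lies above 0. No member passed adjustment over all genes.

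The genotype effect was tested for a difference between the stages. No member was called for the interaction by edgeR or DESeq2 and none had an unadjusted p under 0.05, where 0% of 19676 genes were called by edgeR and 10% had an unadjusted p under 0.05. Gria4 had the lowest p, with a difference of −0.19 ± 0.0906 (edgeR unadjusted p = 0.051, adjusted p = 0.498). For Gria2 it was −0.17 with an interval of −0.47 to 0.13. Among the other AMPA receptor subunits it was −0.10 for Gria3 and −0.051 for Gria1. Among the NMDA receptor subunits it ran from −0.13 for Grin2b, through −0.062 for Grin3a, −0.032 for Grin1, 0.040 for Grin2a and 0.18 for Grin2d, to 0.35 for Grin2c, whose interval was −0.76 to 1.47. A genotype effect confined to P5 was therefore not shown for any member.

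Gene span moved with genotype at P5. When all genes tested were ordered by genomic span and split into 10 bins, the longest bin, from 122 to 2960 kb, lay at a median of −0.065 on the log2 scale, and 72.8% of its genes were lower in Chd8+/-. The bin from 4.73 to 8.29 kb had a median of 0.055, and 34.5% were lower. Of the 10 members 6 lay in the longest bin. Within it, Grin2b was at percentile 38.1, Gria1 at 35.2, Gria3 at 44.3 and Gria4 at 48.1, near the middle of genes of like span. Grin2a was at percentile 90.4, and Grin3a at 67.3. Gria2, in the bin below at 121 kb, was at percentile 8.74 of its bin, and its value with an offset for span was −0.17 (edgeR adjusted p = 0.139). The shorter members were Grin2c (18.1 kb), at percentile 92.3 of its bin, Grin1 at 51.3 and Grin2d (39.0 kb) at 89.9. With the same offset Grin2b was at −0.0063, Gria1 at −0.026, Gria3 at −0.00026 and Gria4 at 0.020, while Grin2a was at 0.18. With an offset for exon length Grin2b was at −0.013. At E12.5 the longest bin had a median of 0.016.

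Markers of several other cell types also had lower values in Chd8+/- at P5. Over all genes, 9.77% had an edgeR unadjusted p under 0.05 in this direction, and 17.8% in either direction. All 7 choroid plexus markers had an unadjusted p under 0.05 in this direction, with a median log2 fold change of −0.60 and a summed level of 323 to 381 CPM against 444 to 576 CPM in Chd8+/+. The same held for 9 of 10 markers of striatal medium spiny neurons (median −0.30, 391 to 456 against 501 to 539 CPM) and 6 of 7 endothelial markers (median −0.22, 213 to 239 against 250 to 271 CPM). GABAergic interneuron markers were lower in 8 of 10 cases, 3 with an unadjusted p under 0.05 (median −0.082, 638 to 720 against 736 to 764 CPM), and progenitor markers in 10 of 12, 4 with such a p, while 1 was higher with such a p (median −0.13, 1180 to 1240 against 1160 to 1340 CPM). Meningeal markers went the other way, with 6 of 7 higher (median 0.13, 284 to 370 against 298 to 330 CPM), and astrocyte and oligodendrocyte precursor markers had medians of −0.013 and −0.015. Microglial markers had a median of −0.039, and of 5 erythrocyte markers tested 4 were negative (median −0.14). Apart from 1 erythrocyte marker, none of these markers was at 0 in any P5 library, and none was called after adjustment. Pan-neuronal markers had a median of −0.012 (10400 to 11100 against 10900 to 11100 CPM) and cortical excitatory markers of 0.0050. An unadjusted p under 0.05 was found for 3 of 14 pan-neuronal markers lower and 1 higher, and for 3 of 11 cortical excitatory markers lower and 1 higher (−0.43 to 0.20 over the list). The part of these markers in the differences of Gria2, Grin2b and Gria1 was not tested.

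Partners of the receptors were counted from lists of the same pathway. Among 17 auxiliary subunits of AMPA receptors, which govern receptor traffic and gating, 15 rose and 0 fell from E12.5 to P5 in Chd8+/+ (median log2 2.29), where 41.4% of all genes rose, and the smallest p were those of Shisa9 (4.87 ± 0.0857) and the stargazin relative Cacng3 (4.73 ± 0.118). The count was also 15 in Chd8+/-, with Shisa9 at 4.88 and Cacng3 at 4.81. Among 21 scaffolds and trafficking partners 20 rose and 1 fell in each genotype, with the smallest p for Nptxr, the neuronal pentraxin receptor (4.82 ± 0.0644 in Chd8+/+), and Dlg2, the scaffold PSD-93 (4.89 ± 0.0870). Of the related genes outside the 10, Grid1 rose (3.36 ± 0.0925) and Grin3b fell (−1.71 ± 0.269). Of 6 regulators 2 rose and 4 fell in each genotype. Adarb1, the enzyme that edits the Gria2 transcript, rose by 2.63 ± 0.0489, and Sp1 fell by 2.33 on the log2 scale. REST, a repressor of neuronal genes, fell by 2.43.

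By genotype at P5 no gene of these 4 lists was called by edgeR. The auxiliary subunits had 8 of 17 values above 0 (median −0.0046), with an unadjusted p under 0.05 for 5, all lower, where 9.77% of all genes had such a p in this direction. The smallest p were those of Shisa6 (−0.21 ± 0.0608, edgeR adjusted p = 0.14) and Gsg1l (−0.16 ± 0.0467, adjusted p = 0.14). The scaffolds had 10 of 21 above 0 (median −0.023), with Lin7b (0.26 ± 0.0562, adjusted p = 0.108) and Dlg2 (−0.16 ± 0.0425, adjusted p = 0.123) at the smallest p. An edgeR unadjusted p under 0.05 was found for 4 scaffolds that were lower and 2 that were higher. Grid1 was at −0.10 ± 0.0420 (adjusted p = 0.247), and of the regulators Sp4 (−0.12 ± 0.0583, adjusted p = 0.317) and Adar (−0.059 ± 0.0397, adjusted p = 0.47) had the smallest p. At E12.5 none was called. Among the smallest p per list were those of Nptxr (0.23), Lin7a (0.30), Sp4 (0.10), Nrf1 (−0.063), Cpt1c (−0.20), Porcn (−0.16) and Grin3b (−0.11), and only the first 3 of these had an unadjusted p under 0.05. For the interaction of genotype and stage none was called, and Lin7a (−0.49, edgeR adjusted p = 0.383), Lin7b (0.39), Sp4 (−0.24), Nrf1 (0.11), Frrs1l (−0.20), Cacng5 (−0.36) and Grid1 (−0.15) were among the smallest p of their lists.

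The genes most like 3 of the members in their pattern over the 12 libraries were found by the root mean square difference of log2 CPM, each gene centred on its mean. For Grin2b these were Lrtm2 (0.0845), Paqr9 (0.0915) and Phf24 (0.0949), and for Grin2a they were Kcnh1 (0.0881), Oxtr (0.0923) and Gm9954 (0.0955). For Gria2 they were Neb (0.0756), Scml4 (0.0882) and Arc (0.0919). Within a difference of 0.5 there were 392 genes for Grin2b, 632 for Grin2a and 4818 for Gria2. Genes with a like fold between the stages are close by this measure by its construction.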

How the data were processed

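Neocortical mRNA of 12 libraries was sequenced as paired-end reads. The authors trimmed (Trim Galore 0.4.1), aligned to GRCm38 (TopHat2 2.1.0) and counted reads on Ensembl genes (featureCounts 1.5.0). The deposited unit is the raw count per gene in each of 2 runs per library. The P5 counting command names no strand option, and the E12.5 command was not given in the sources used here.

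Runs were summed, as chi-squared over degrees of freedom was 1.184 to 1.545 between runs and at least 7.089 between libraries of a group. Counts were tested by quasi-likelihood in edgeR 4.0.16 (R 4.3.3) with TMM factors, filterByExpr defaults and Benjamini-Hochberg adjustment over all genes tested (threshold 0.05). Genotype was fitted within each stage, and stage and interaction in a model of all 4 groups. CPM use the TMM library sizes of the 12 libraries, and levels between genes are CPM per kb of merged exons. Intervals at 95% use the model's standard error and degrees of freedom. Ratios and shares were tested by exact two-sided permutation. Alternatives were DESeq2 1.42.0, limma-voom (limma 3.58.1), other scalings, filters and length offsets (loess, span 0.5), a replicate block and leaving out single libraries. A term for high Xist counts (over 100 CPM) was chosen after seeing the data. The fit was tested on simulated counts. Symbols were matched for 46005 of 46603 genes.

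All 10 members are named in every comparison, with the 2 genes of smallest p per pathway list and the 3 genes most like Grin2a, Grin2b and Gria2. Rest, and Grin3b where it fell with stage, were named after their values were seen. A result that the naming rule covers is not reported here. Members and lists were chosen with earlier results of these data known. Libraries are taken to come from separate animals, which the labels do not state, and otherwise p-values measure technical spread only.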

Additional observations from a re-analysis of the deposited data

How the results depend on the processing

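From E12.5 to P5, all 10 members were called in both genotypes under every alternative run except the pan-neuronal scaling, by which Gria2 turned to −0.34 in Chd8+/+ and −0.43 in Chd8+/- and Gria4 was 0.063 (no longer called) and −0.062. At E12.5 and for the interaction no alternative called a member. At P5, Gria2 alone was called, by DESeq2, without a filter on low counts (adjusted p = 0.00101) and without Chd8+/- replicate 2 (1 member each), and 0 to 1 members were called over the libraries left out.

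Near 0, signs changed at P5 for Grin1 (limma-voom −2.9e-05, all 12 libraries in 1 model −0.016, −0.011 to 0.017 over libraries left out), for Grin3a (0.046 with an exon length offset, 0.053 with a span offset) and for Gria4 (0.020 with a span offset). The Grin2b to Grin2a difference between stages was 0.35 with 10 counts added, which by construction lowers the ratio mainly at E12.5. It was 0.084 to 0.36 over libraries left out, and that of genotype at E12.5 was −0.31 to 0.24. Shares of raw counts, not per kb, put Grin2b at 61.2% at E12.5 and 52.3% at P5 and Gria2 at 75.5% and 49.9% in Chd8+/+, since these are long transcripts. The cause of the other shifts was not tested.

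Same-numbered libraries correlated from 0.0393 to 0.339 at P5 and from −0.381 to −0.163 at E12.5, and not every library correlated best with its own number, so the numbers were not taken as pairs. With the replicate block no member's call changed by genotype (0 called at either stage), Gria2 at P5 had −0.23 with an adjusted p of 0.163, and all genes called went from 1 to 4 at P5 and from 1 to 0 at E12.5. With a term for high Xist counts no member was called. Depth limits Grin2c and Grin2a at E12.5. All genes called at P5 numbered 1 by edgeR, 651 by DESeq2, 995 without the filter and 327 without Chd8+/- replicate 2.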
